A study of Mus musculus with 2 samples.

Results

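The genes described here are 9 genes of glutathione synthesis, iron storage and the Nrf2 response: Gclc, Gclm, Fth1, Ftl1, Nqo1, Txnrd1, Srxn1, Hmox1 and Slc7a11. They were followed in a map of the RNAs held by Usp39, a splicing factor that belongs to the tri-snRNP, the particle that brings the U4, U5 and U6 small nuclear RNAs to the spliceosome. A peak was counted for a gene when the deposited list gave it that gene's symbol. By this rule 5 of the 9 genes had 178 peaks, 0.495% of a list that holds 17990 peaks in each of 2 passes, and the other 4 had none. The genes were chosen by their named peak counts in this same list, so the counts are a description, and nothing is read from their number. For comparison, 20.3% of the 22028 protein-coding genes had a named peak.

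RNA immunoprecipitation with sequencing (RIP-seq) was done in AML12, an established mouse hepatocyte line grown with an ITS supplement and dexamethasone. The cells carried an expression vector for FLAG-tagged Usp39 that doxycycline switches on, and received doxycycline for 72 h before 5 min of paraformaldehyde cross-linking and isolation of nuclei. There were 2 groups with 1 library each, an Input made without antibody and an anti-FLAG immunoprecipitate (IP), and both came from cells with the induced transgene. The labels do not give how many clones or cultures the libraries hold. The study's reporting summary speaks of several independent RIP-seq experiments, but no source used here says which of them the list holds or whether they were pooled.

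The values analysed were 1 peak list on the mm10 genome and 1 table of peaks per gene, and the columns name neither library. No peak could therefore be set against Input or against the level of its RNA, the depth is unknown, and no test between groups was possible. The list runs over the chromosomes from start to end and then starts over, which makes 2 runs of 17990 peaks, called passes below. No source used here says what the passes stand for, so values are given for each. Each peak has the p-value of the peak caller, which served only to rank peaks. The smallest value in the list is 5.24e-15 and the largest 0.000736. Of 10 hepatocyte markers, only Krt8 (14 peaks) and Krt18 (16 peaks) had any peak, while Alb, Apoa1, Apoe, Ttr, Trf, Serpina1a, Hnf4a and Cebpa had 0 named and 0 overlapping. None of 14 immune, endothelial and stellate cell markers was overlapped by a peak, although Cd68 and Lyz2 each had 2 peaks named for them that lay elsewhere.

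Glutathione is the main small thiol of the cell and is abundant in hepatocytes. Gclc is the catalytic and Gclm the modifier subunit of glutamate-cysteine ligase, which makes the rate-limiting step of its synthesis, and Slc7a11 is the transport subunit of the cystine importer that supplies cysteine. Ferritin stores iron in a shell of heavy chains, from Fth1, which oxidise iron, and light chains, from Ftl1. Nrf2, encoded by Nfe2l2, is a transcription factor that Keap1 marks for degradation and that oxidants or electrophiles set free. Its targets include Gclc, Gclm, both ferritin chains, the quinone reductase Nqo1, the cytosolic thioredoxin reductase Txnrd1, the sulfiredoxin Srxn1, which repairs overoxidised peroxiredoxins, and the heme oxygenase Hmox1, which frees iron from heme.

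The peaks were very unevenly spread over the 9 genes. Gclc had 142 named peaks, 79.8% of the 178, with 72 in the first pass and 70 in the second. Fth1 had 15 (7 and 8), Ftl1 10 (5 and 5), Gclm 6 (3 and 3) and Txnrd1 5 (2 and 3). Nqo1, Srxn1, Hmox1 and Slc7a11 had 0 in either pass. In the table of peaks per gene Gclc ranked 14, while the median gene there had 3 peaks. Counted by position, without regard to the symbol, peaks overlapped the same 5 gene bodies, beside 19.0% of all protein-coding genes.

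**Figure D1:**
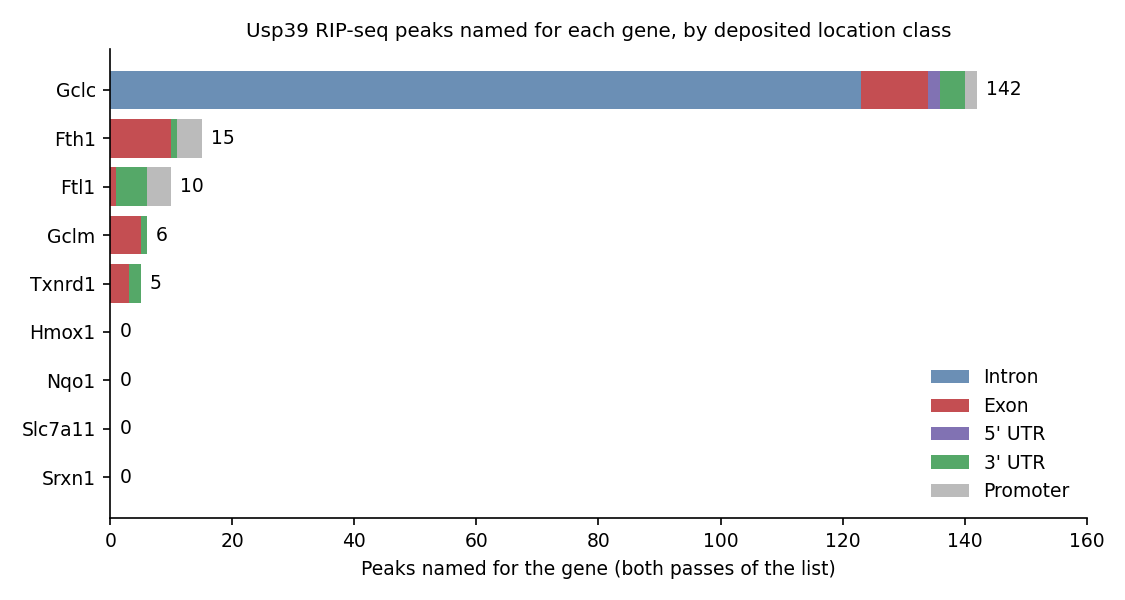
Horizontal bars give the number of peaks named for each of the 9 genes, split by the deposited location class, with both passes of the list counted. Gclc reaches 142 peaks, 123 of them in introns, whereas the next gene, Fth1, has 15 and none classed as intron.

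The location of the peaks differed as much as their number. Introns held 123 of the 178 peaks by the deposited classes (69.1%, exact 95% binomial interval 61.8 to 75.8%), all of them in Gclc. The whole list had 41.5% in introns. Without Gclc, 0 of 36 peaks were classed as intron (upper bound 9.74%), 19 as exon (52.8%), 9 as 3' UTR (25.0%) and 8 as promoter (22.2%). By the principal transcript of each gene instead, 10 of these 36 peaks lay in an intron alone (27.8%, 6 in Fth1, 2 in Ftl1 and 2 in Gclm). By the class of most of their exonic bases, 13 were coding exon peaks (36.1%). The contrast with Gclc, at 127 of 142 in introns, was thus smaller. Of the 19 exon peaks, 5 were named for Gclm and lay on pseudogenes, and without these 14 of 31 were classed as exon (45.2%). The intervals cover counting error only and take peaks of 1 gene as independent, which they are not. Among all peaks 24.0% were classed as exon, 19.5% as 3' UTR and 3.30% as promoter. The gene body held 172 of the 178 peaks (96.6%), and the 6 outside it were named for Gclm (3) and Ftl1 (3).

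Gclc, on chromosome 9 at 77754535 to 77794485 on the plus strand (gene ENSMUSG00000032350), was covered by peaks along nearly its whole length. All 142 peaks lay inside its 39.951 kb, the first of them 66 bases after the transcript start and the last ending 485 bases before the transcript end. Together they covered 17600 bases, 44.1% of the gene, at 3.55 peaks per kb. Only 26 of 21292 protein-coding genes of at least 1 kb, Gclc included, had this density or more. Of 12067 protein-coding genes with at least 10 kb of intron, 2088 had any intron base under a peak, and the median cover among them was 0.482%. Gclc had 43.8% of its 36528 intron bases under peaks, a share reached by 10 of these genes, itself included.

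The cover of Gclc ran through most of its introns and through some of its exons. Intron 1, at 20.119 kb the longest, was touched by 67 peaks and covered over 39.0% of its bases, 24.6% in the first pass and 23.4% in the second. Intron 6 was touched by 22 peaks and covered over 65.6%, and intron 12 by 17 peaks and over 64.9%. Introns 3 and 4 had 11 and 8 peaks. Of 15 introns, 13 were touched, all but introns 7 and 8. Of 16 exons, 8 were touched, namely 1, 3, 5, 11, 12, 13, 14 and 16. The exons without a peak were between 75 and 139 bases long, and exons 6 to 10 all fell among them. In all, 47.0% of the 3423 exon bases and 43.8% of the intron bases were under peaks, so in sum exons and introns of Gclc differed little in their cover. Of the 1608 exon bases under peaks, 761 were in exon 16 and 259 in exon 1, the first and last exons.

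**Figure D2:**
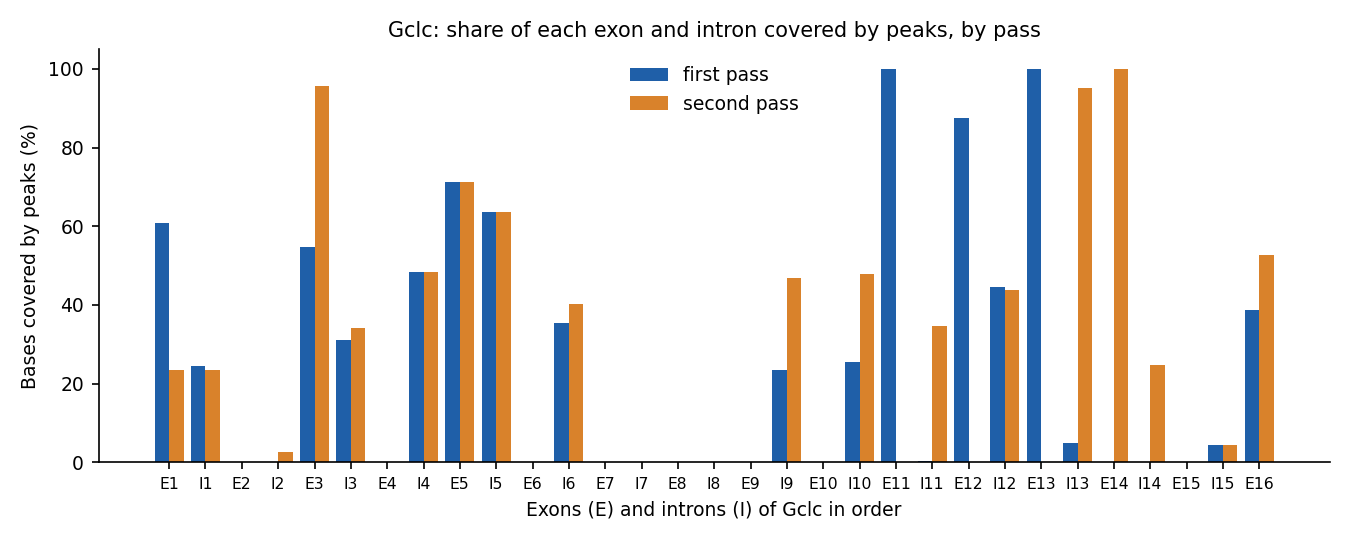
Bars give the percent of bases of each Gclc exon (E) and intron (I), in transcript order, that lie under a peak of the first pass or of the second. The long introns 1, 3, 4, 6 and 12 have similar heights in both passes, while short exons such as E11 and E13 are covered in the first pass only.

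Along the gene the peaks were densest near the start and in the region from 25 to 30 kb. Windows of 5 kb held 25, 15, 22, 7, 13, 27, 20 and 13 peaks from the transcript start to its end. Each window had peaks in both passes, for instance 13 and 12 in the first 5 kb and 14 and 13 from 25 to 30 kb. The lowest window, from 15 to 20 kb, had 5 and 2. The longest stretch without any peak was 3500 bases, across the end of intron 1, exon 2 and nearly all of intron 2. When peaks within 100 bases of each other were joined, Gclc had 38 sites with a median width of 300 bases and a widest site of 2000 bases.

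**Figure D3:**
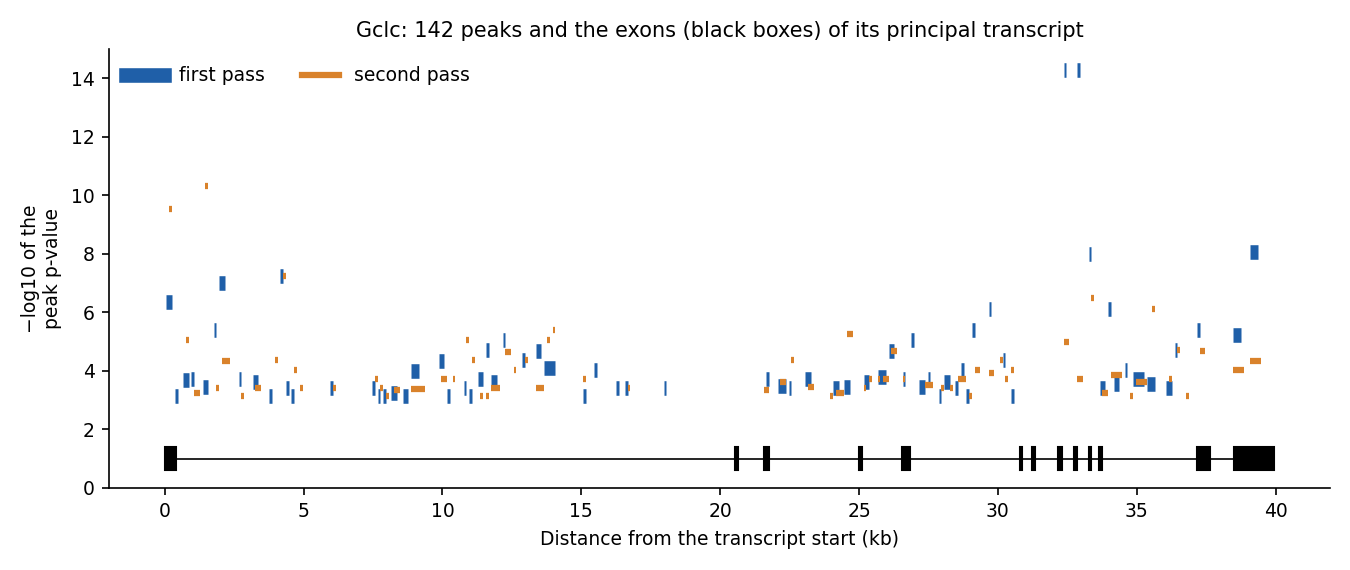
Each horizontal dash is a Gclc peak, placed by its distance from the transcript start (kb) and by the −log10 of its p-value, with thick dashes for the first pass and thin ones for the second. Black boxes are the exons. Most peaks lie between 3 and 5 on the vertical axis, and 2 peaks of the first pass in introns 9 and 10 stand at 14.28.

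By the caller's own p-value, Gclc peaks were at the median close to the list as a whole. Only 85 of the 142 were 100 bases wide, against 78.5% of all peaks. The part of width in the p-values was not tested. The median of −log10 p was 3.73 against 3.68 for all peaks, and 26 of 142 (18.3%) had a p-value of 1e-05 or less against 14.4% of all peaks. The p-values move in steps: the 85 Gclc peaks of 100 bases had only 15 different values, and 19 of them had the largest one in the list. The strongest stood at both ends of the gene and around introns 9 and 10. The second pass had a peak in the 5' UTR at 77754701 to 77754800 with a p-value of 2.92e-10, and the overlapping peak of the first pass had 4.50e-07. The 3' UTR peak at 77793601 to 77793900 had 8.27e-09 in the first pass, and that of the second pass, which ran to 77794000, had 4.71e-05. In each pair the peak with the smaller value was the narrower, 100 against 200 bases and 300 against 400. These values, too, cannot be read as a difference between passes.

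The Gclc peaks with the smallest p-values are shown because they mark where the caller found the clearest excess of reads. In the first pass, peaks in introns 9 and 10 reached the smallest p-value of the list, 5.24e-15, which 1.07% of all peaks share. In the second pass the peaks that overlap them had p-values of 9.93e-06 and 0.000188. The third, in intron 1 in the second pass, had 4.78e-11, and the overlapping peak of the first pass 0.000368. Each of these overlapping peaks was 200 bases wide and each peak shown 100, so the values cannot be read as a difference between passes. The sequences are on the plus strand of mm10, the strand of the gene, with no capitals because neither hexamer searched below occurs in them.
Gclc intron 9, chr9:77786901-77787000: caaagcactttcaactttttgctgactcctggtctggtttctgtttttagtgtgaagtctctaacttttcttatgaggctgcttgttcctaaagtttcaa
Gclc intron 10, chr9:77787401-77787500: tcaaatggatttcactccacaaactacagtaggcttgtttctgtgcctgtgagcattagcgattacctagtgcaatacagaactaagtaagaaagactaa
Gclc intron 1, chr9:77756001-77756100: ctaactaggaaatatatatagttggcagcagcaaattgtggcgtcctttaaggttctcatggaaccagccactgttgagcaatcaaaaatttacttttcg

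The study names GGCCAC and GCCAUA as the most abundant elements in a motif search of its RIP-seq peaks. Both were looked for, as GGCCAC and GCCATA, on the strand of the named gene. Since they were drawn from these same data, their presence here is no separate support. These words cannot overlap each other on a strand. Among peaks of 100 bases, 3 of 85 Gclc peaks held GGCCAC and 1 held GCCATA. Of 27749 such peaks in the whole list, 3.37% held GGCCAC and 1.45% held GCCATA. A match is a description and not a binding site. Under Gclc peaks of any width GGCCAC stood at 6 places, and 4 of these lay under peaks of both passes, 3 in intron 1 and 1 in intron 12 at 77789600. GCCATA stood at 4 places, each under a peak of 1 pass. The 3 shared places in intron 1 are shown in their bins of 100 bases with GGCCAC in capitals, and that in intron 12 crosses the edge of a bin and is not printed. The smaller p-values in either pass at the places shown were 9.87e-08, 0.000188 and 3.99e-06, in the order shown. The joined site around 77756601 to 77756700 matched 433 other genes over at least 80 bases in blastn, at 88.3% identity at best. The joined site around 77768501 to 77768600 matched 291 other genes, at 85.7% at best. The joined site around 77765901 to 77766000 matched none. Whether these matches take in GGCCAC was not tested.
Gclc, chr9:77756601-77756700: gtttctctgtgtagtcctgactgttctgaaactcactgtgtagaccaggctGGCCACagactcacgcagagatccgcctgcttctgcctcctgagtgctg
Gclc, chr9:77765901-77766000: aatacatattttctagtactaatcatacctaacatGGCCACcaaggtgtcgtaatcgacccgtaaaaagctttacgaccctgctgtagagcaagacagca
Gclc, chr9:77768501-77768600: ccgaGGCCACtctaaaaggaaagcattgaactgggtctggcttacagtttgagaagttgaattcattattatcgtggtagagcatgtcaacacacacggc

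Because the tri-snRNP takes over the 5' splice site before splicing begins, the exon and intron borders of Gclc were examined as well. Peaks crossed the 5' splice site of 6 of 15 introns and the 3' splice site of 5, and 9 introns had at least 1 border crossed. The 5' splice sites under a peak are shown with the last 3 exon bases in lower case and the first 6 intron bases in capitals.
Gclc intron 1: gagGTGAGC
Gclc intron 5: caaGTAAGT
Gclc intron 11: gagGTGAGA
Gclc intron 12: aagGTACAG
Gclc intron 13: aagGTATCA
Gclc intron 14: aagGTACGG
Only intron 5 was crossed in both passes. Of the 6 capital bases, between 3 and 6 matched GTAAGT, the usual mammalian 5' splice site (median 4). At the 9 uncrossed sites the range was also 3 to 6 (median 5). No test of this difference was made.

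Repeats were about as common under Gclc peaks as in the whole gene, and copies of the sequence touched a minority of its sites. Soft-masked repeats made up 15.5% of the bases under Gclc peaks and 15.5% of the gene as a whole, and the GC content was 45.8% under peaks and 44.4% in the gene. Of 38 joined sites, 7 matched a transcript of another gene over at least 80 bases in blastn, and 1 matched at 95% identity or more. How the reads of such sites were placed was not tested.

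Among 93 other protein-coding genes with at least 50 named peaks, those with location classes most like Gclc were Ndrg1, Slc22a5 and Tns1. Ndrg1 had 154 peaks with 85.7% in introns and 9.74% in exons, Slc22a5 56 peaks with 85.7% and 7.14%, and Tns1 304 peaks with 85.2% and 6.58%. Gclc had 86.6% and 7.75%. The likeness is the sum of absolute differences between class shares, 0.0399 for Ndrg1, and rests on 1 list. Slc22a5 encodes a carnitine transporter and Tns1 a protein of focal adhesions.

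Over their annotated gene bodies Fth1 and Ftl1, the ferritin chains, had peaks about as dense as those of Gclc, with smaller median p-values. Fth1 lies on chromosome 19 at 9980598 to 9985098 on the plus strand (ENSMUSG00000024661) and its 15 peaks came at 3.33 per kb. That body is the span of all its annotated transcripts. All 15 peaks lay within the principal transcript, which runs only from 9982646 to 9985098, so the density over that transcript was higher. Ftl1 lies on chromosome 7 at 45457944 to 45459884 on the minus strand (ENSMUSG00000050708), and the 7 peaks in its body came at 3.61 per kb. The median of −log10 p was 4.70 for Fth1 and 6.72 for Ftl1, against 3.68 for all peaks. The smallest p-value in the list was reached by 4 Fth1 and 3 Ftl1 peaks. Peaks covered 57.3% of the exon bases of the principal Fth1 transcript and 47.3% of those of Ftl1. Among 3159 genes with several exons and any exon base under a peak the median was 7.87%.

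In Fth1 all 4 exons and all 3 introns of the principal transcript were touched, and nearly every region in both passes. The exon 1 peak at 9982701 to 9982900 was called over the same bases in both passes, with p-values of 5.24e-15 and 2.94e-08. The peak over exon 3 and the start of intron 3, at 9984601 to 9984700, had 2.92e-10 and 5.24e-15. In exon 4, which holds the end of the coding sequence and the 3' UTR, the peak began at 9984801 in both passes and had 5.24e-15 in each. Intron 1 was touched by 7 peaks, covered over 81.9% of its 1197 bases, with p-values between 7.61e-07 and 0.000736. The deposited annotation calls none of the Fth1 peaks intronic, and places those over intron 1 in an exon of another transcript or in a promoter. By the principal transcript 6 of the 15 lay in an intron alone. Peaks of both passes crossed the 5' splice sites of introns 2 and 3, shown as above.
Fth1 intron 2: aagGTAAGT
Fth1 intron 3: cacGTGAGT
Of the 7 peaks of the first pass, 6 overlapped a peak of the second.

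In Ftl1 the peaks lay at both ends of the transcript and over introns 1 and 2. The exon 1 peak at 45459501 to 45459700 was called over the same bases in both passes, with p-values of 2.08e-14 and 5.24e-15. Over exon 4 the peak ran from 45457901 to 45458200 in the first pass and from 45458001 in the second, with 5.24e-15 in each. That stretch also holds Gm22133, annotated as a microRNA gene on the same strand. In intron 2 the peaks had 3.80e-07 and 0.000308. They were 200 and 300 bases wide, so these values cannot be read as a difference between passes. Exon 2 had a peak in the second pass alone, with 4.24e-09, and exon 3 had none. Both exon 1 peaks crossed the 5' splice site of intron 1.
Ftl1 intron 1: ctgGTGAGC
A gene of unsettled type on the other strand, Gm10252, overlaps exon 1, and peaks carry no strand.

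**Figure D4:**
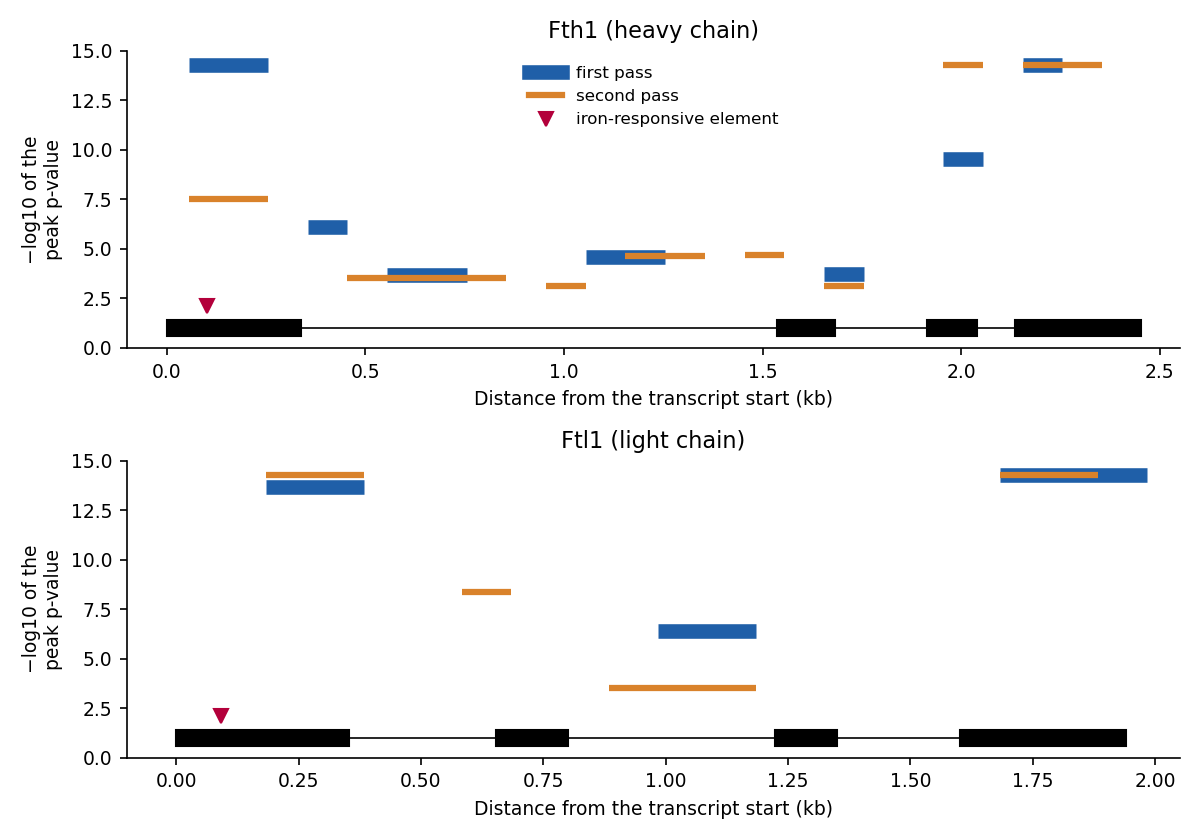
Peaks of Fth1 and Ftl1 are drawn by distance from the transcript start (kb) and −log10 of the p-value, thick for the first pass and thin for the second, with exons as black boxes. In Fth1 the iron-responsive element (triangle) lies under a peak of both passes, and in Ftl1 it lies 85 bases before the nearest peak.

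The 5' UTR of both ferritin messages carries an iron-responsive element, a hairpin to which iron regulatory proteins bind when iron is scarce and which then holds back translation. It was looked for as a bulged C, 5 bases of stem, the loop CAGTGN and 5 bases that pair back, and was found in 21 of 19019 principal 5' UTRs (0.11%). The elements are shown with the loop in capitals, on the strand of each gene, because only that of Fth1 lay under a peak.
Fth1, chr19:9982733-9982759: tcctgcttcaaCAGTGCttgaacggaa
Ftl1, chr7:45459780-45459806: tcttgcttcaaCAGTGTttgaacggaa
The Fth1 element lay under the exon 1 peak in both passes. The Ftl1 element lay under no peak, 85 bases from the nearest one, which covers the part of exon 1 nearer to the coding sequence and the start of intron 1. Peaks are called in steps of 100 bases, so a distance of 85 bases is less than 1 step. In the other iron genes the same search found 4 elements in the 3' UTR of the transferrin receptor gene Tfrc and 1 in the 5' UTR of the iron exporter gene Slc40a1, both named after their values were seen, and no peak lay over any of them.

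Ferritin genes have many processed copies. Of the 2 joined Fth1 sites, both matched transcripts of other genes over at least 80 bases, 1 of them at 95% identity or more, and of 6 joined Ftl1 sites 3 matched and 2 did so at that identity. Of 14 other genes and pseudogenes annotated as ferritin-like, 3 were overlapped by a peak: Ftl2-ps with 2 peaks, Ftl1-ps1 with 2 and Fth-ps2 with 1. Their smallest p-values were 4.29e-05, 0.000265 and 0.000377, all larger than the smallest at Fth1 and Ftl1. Peaks on Ftl2-ps and Ftl1-ps1 were named for Mir692-2 and that on Fth-ps2 for Braf. No source used here says how reads that fit several copies were placed. For 3 of the 10 peaks named for Ftl1, the gene that held them was Gys1, the muscle-type glycogen synthase gene that ends next to it. They lay at 45455001 to 45456000 with p-values of 0.000377, 0.000736 and 0.000736, so the 7 in Ftl1 itself include all of the strong ones.

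Gclm, on chromosome 3 at 122245557 to 122270732 on the plus strand (ENSMUSG00000028124), had 6 named peaks, but only 1 of them lay in its own exons. That peak, at 122266401 to 122266500 in the 3' UTR, was in the first pass alone and had the largest p-value of the list, 0.000736. Gm17494, annotated as a processed transcript on the minus strand, also spans it, and peaks carry no strand. The peak can therefore not be assigned to Gclm with certainty. Its joined site matched no other transcript. Of the other 5 peaks, 3 lay before the gene in Gm4609, a processed pseudogene on the minus strand, and 2 lay in intron 2 over Gm6061, a transcribed processed pseudogene. The strong p-values belonged to these 5, with 1.26e-12 over Gm6061 in the first pass (0.000188 in the second) and 7.16e-10 over Gm4609 in the second (5.53e-05 in the first). In each pair the peak with the smaller value was 100 bases wide and the other 200.

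Both pseudogenes are copies of genes outside the glutathione pathway. Over its full 1002 bases Gm4609 matched Gapdh, the glycolytic glyceraldehyde-3-phosphate dehydrogenase, at 99.6% identity. Gm6061 matched Ppia, the cyclophilin A gene, at 99.8% over its full 492 bases. Gapdh itself was overlapped by 15 peaks, with a smallest p-value of 5.24e-15, and Ppia by 5, with 5.69e-15. The strongest stretch on each pseudogene is shown, on the pseudogene's strand, because it carries the peaks that gave Gclm its place in the gene table. Bases unlike the Gapdh or Ppia message would be in capitals, and there are none.
Gm4609, chr3:122230901-122231000: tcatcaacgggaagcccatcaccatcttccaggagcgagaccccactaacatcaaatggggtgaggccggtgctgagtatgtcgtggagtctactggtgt
Gm6061, chr3:122256728-122256800: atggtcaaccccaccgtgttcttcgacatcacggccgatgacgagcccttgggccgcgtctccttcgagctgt
Reads of the parent messages that fall in these stretches cannot be told apart by sequence from reads of the pseudogenes. Counted without the pseudogenes, Gclm kept 1 peak, the one that Gm17494 also spans.

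Txnrd1, on chromosome 10 at 82833951 to 82897712 on the plus strand (ENSMUSG00000020250), had 5 peaks over its exons. At exon 7 of the principal transcript the peak at 82881701 to 82881800 was called in both passes, with p-values of 0.000377 and 8.98e-06, and it crossed the border with intron 6. In the 3' UTR of the last exon, peaks stood side by side, at 82897001 to 82897200 in the first pass (0.000139) and 82897201 to 82897300 in the second (3.26e-07). A peak over exon 10 that crossed the 5' splice site of intron 10 was in the second pass alone (0.000377). None of the 3 joined sites matched another transcript. A further peak in intron 1, named for Eid3, was in the second pass alone (0.000377). The gene had 0.0941 peaks per kb, and 0.352% of its 35209 intron bases were under a peak, against 43.8% in Gclc.

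Nqo1, Srxn1, Hmox1 and Slc7a11 had no peak in their bodies in either pass. Nqo1, on chromosome 8 at 107388225 to 107403206, lay 9.325 kb from the nearest peak, which was named for Nfat5, the next gene, itself overlapped by 95 peaks. Hmox1, on chromosome 8 at 75093621 to 75100589, had 1 peak within 100 kb, at 46.721 kb, named for Tom1. Srxn1, on chromosome 2 at 152105516 to 152111376, had none within 100 kb and the nearest at 118.525 kb. For Slc7a11, on chromosome 3 at 49892526 to 50443614, the nearest peak was 740.226 kb away. Depth and RNA levels are unknown, so little RNA of a gene and little binding to it cannot be told apart. Of the 9 gene bodies the longest was that of Slc7a11, with 551.089 kb and no peak, and the shortest that of Ftl1, with 1.941 kb and 7 peaks. The Slc7a11 body is the span of all its annotated transcripts, and its principal transcript runs only from 50364938 to 50443611.

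Peaks of the 2 passes overlapped more often over these genes than over the list as a whole. Of first-pass peaks, 36 of 72 in Gclc and 12 of 17 in the other 4 genes (70.6%) overlapped a peak of the second pass, against 32.7% in the whole list. The part of peak density in this was not tested. Where they did not overlap they were often side by side. For 71 Gclc peaks of the first pass the nearest middle of a second-pass peak was within 500 bases. It was at a higher coordinate for 44, the same for 7 and lower for 20, with a median of 50 bases. Over the list the median was 100 bases, with 69.1% at a higher coordinate. The share with a higher coordinate was 69.4% for genes on the plus strand and 68.7% for genes on the minus strand, so the offset followed the genome coordinate and not the direction of transcription.

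The wider pathways were read from 6 lists that hold 108 genes beside the 9. Of these, 45 were overlapped by a peak (41.7%), against 19.0% of all protein-coding genes, and the median number of overlapping peaks was 0. The 19.0% takes in all annotated genes, whether or not their RNA is present in AML12. RNA levels are unknown, so their part in the list shares could not be tested. The share also moved with gene length, and the part of length in the list shares was not tested. Among all protein-coding genes the share overlapped was 11.0% under 10 kb, 19.2% from 10 to 30 kb, 26.3% from 30 to 100 kb and 28.3% above. The lists had median lengths between 7.25 kb (peroxidases and transferases) and 29.5 kb (ferritin, iron and heme).

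**Figure D5:**
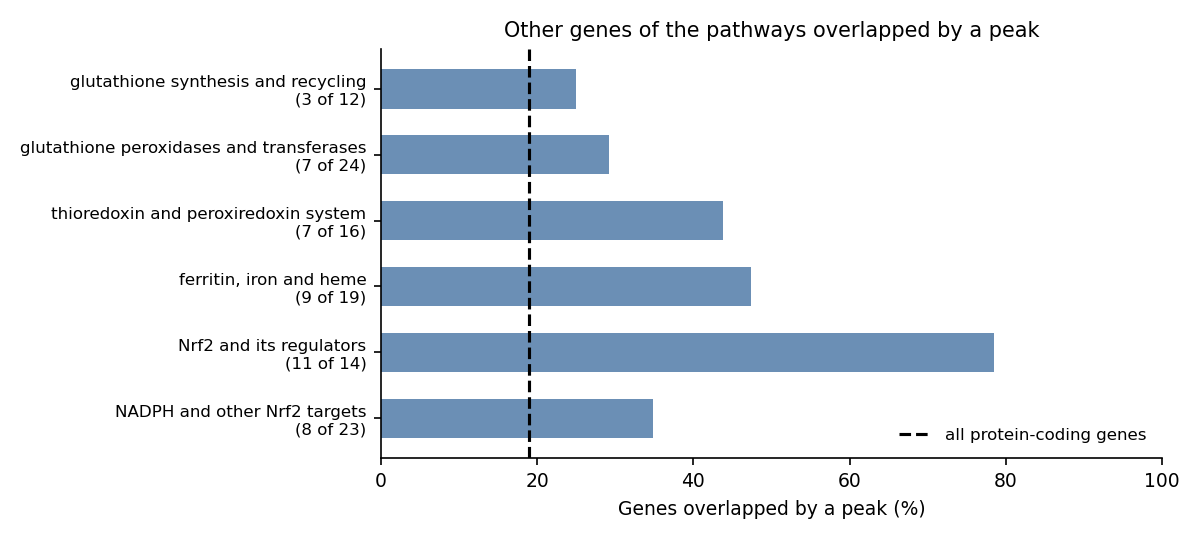
Bars give the percent of genes in each pathway list, without the 9 genes, that a peak overlaps by at least 1 base. The dashed line is the share of all protein-coding genes (19.0%), and the bars run from 25.0% for glutathione synthesis and recycling to 78.6% for Nrf2 and its regulators.

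In glutathione synthesis and recycling 3 of the 12 other genes were overlapped. Slc3a2, the heavy chain that partners Slc7a11 in the cystine importer, had 11 peaks (5 and 6 in the passes), and Gsr, the reductase that regenerates glutathione, had 8 (5 and 3). The glutamine transporter gene Slc1a5 had 2. Slc1a4, a neutral amino acid transporter gene, had 4 named peaks and none in its body, since all 4 lay in Gm12033, a processed pseudogene that matched Gapdh at 99.9% over 1002 bases. Cbs, Chac1 and Chac2 had none. Among peroxidases and transferases 7 of 24 were overlapped. Gpx4, which reduces lipid peroxides and guards against ferroptosis, had 9 named peaks, 8 of them in its body, with a smallest p-value of 6.80e-15. Gpx1, the main cytosolic glutathione peroxidase gene, had 7 with 5 in its body. The transferase genes Gstm1, Gstm2 and Gsta1 had 3, 2 and 1. Those of Gpx3 (1 peak) lay in Tnip1. Gpx7, Gpx8 and Gsta2 had none.

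In the thioredoxin and peroxiredoxin system 7 of the 16 others were overlapped. Prdx1 had 4 named and 7 overlapping peaks, Prdx6 4, Prdx5 2 named and 3 overlapping, and Prdx2 and Selenow 2 each, while Glrx2, Msra and Msrb1 had none. In the ferritin, iron and heme list 9 of 19 were overlapped. Cp, which encodes the ferroxidase ceruloplasmin, had 104 named peaks, 64 of them in introns, and was overlapped by 109 (51 and 58). The zinc and iron importer gene Slc39a14 had 47 peaks (23 and 24), Fbxl5, whose product degrades iron regulatory protein in iron-rich cells, had 25 (14 and 11), and Pcbp2, an RNA-binding protein that also acts as an iron chaperone, had 20 (9 and 11). Aco1, Blvra and Blvrb had none. The 2 peaks named for Ncoa4, the ferritin receptor of autophagy, named here after its values were seen, lay in Timm23.

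Nrf2 and its regulators had the highest share, with 11 of 14 genes overlapped and a median of 5.5 overlapping peaks. Nfe2l1, a relative of Nrf2, had 15 named peaks with 12 in its body. Sqstm1, the autophagy adaptor p62 that binds Keap1, had 12 (6 and 6), Mafg and Maff, the small Maf partners of Nrf2, had 11 and 8, and Crebbp, a coactivator, and Gsk3b, a kinase that marks Nrf2 for degradation, had 7 and 6. Bach1 and Bach2, which compete with Nrf2, had none, and Btrc had none named but 6 overlapping. Nfe2l2 and Keap1, named here after their values were seen, had 4 named peaks each, with 5 and 2 overlapping their bodies. Only 2 of these 14 genes had a named peak with a p-value of 1e-05 or less. Among the other Nrf2 targets and NADPH enzymes 8 of 23 were overlapped. Osgin1, an oxidative stress response gene, had 24 named peaks, all in introns, and was overlapped by 35 (19 and 16). The exporter gene Abcc3 had 11 named and 13 overlapping, the transketolase gene Tkt 4 and 5, and Pgd and Ugdh 1 each. Abcc1 and Abcc2 had none, and Abcc4 none named and 1 overlapping. All these lists were drawn up with earlier results of these data known.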

How the data were processed

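The RIP-seq libraries were 1 Input and 1 IP from AML12 cells, sequenced as paired reads of 150 bases. The authors trimmed reads with Trim Galore (0.6.1), checked them with FastQC (0.11.9), removed ribosomal RNA reads with Bowtie (1.2.3), mapped the rest to mm10 with HISAT2, and ran Piranha on bins of 100 bases with 0.001 as the largest p-value allowed. No source used here says whether Input entered the calls. Each peak's p-value was used as deposited, with no adjustment stated. Peak widths, distances and peaks per gene were also taken as deposited. Depth is unknown, so no precision from reads can be given.

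The members, lists and tests were chosen with earlier results of these data known. Named genes follow a rule: all 9 members, from each list up to 6 genes with the most named peaks and up to 3 without, genes holding at least 2 peaks named for a member, overlapped ferritin pseudogenes and the 3 genes most like Gclc. Genes were matched to the GENCODE mouse annotation of mm10. The principal transcript was the APPRIS principal, then CCDS, then the longest coding sequence, then the lowest identifier. Overlap needed at least 1 base. Sequence came from the RefSeq copy of the GRCm38 genome, read with samtools (1.23.1), and copies were searched with blastn (2.17.0). Python (3.11.15), pandas (2.3.3) and scipy (1.17.1) were used, and overlap and interval steps were tested on simulated data. No groups were tested. Alternatives were a p-value limit of 1e-05, overlap with the gene body, at least 2 peaks, the principal transcript, whole peaks inside the body, peaks joined within 100 bases, leaving out Gclc and, chosen after seeing the data, each pass alone, leaving out peaks on pseudogenes, and the principal transcript without Gclc.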

Additional observations from a re-analysis of the deposited data

How the results depend on the processing

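The count of 5 genes with a peak held at a p-value limit of 1e-05, by overlap with the gene body, with at least 2 peaks and in either pass alone. It rests on Gclm-named peaks over pseudogenes in part: without these it stayed 5 in all and in the first pass, and was 4 at 1e-05 or less, with at least 2 peaks and in the second pass alone, since Gclm then kept 1 peak. That peak also lies in Gm17494 on the other strand. The count of 178 peaks became 43 at a p-value of 1e-05 or less, 53 after joining within 100 bases, 36 without Gclc and 89 in either pass alone, in each case because peaks were dropped or joined, and stayed near it at 173 by overlap with gene bodies. The intron share of 69.1% moved to 46.5% at 1e-05 or less, 77.0% by the principal coding transcript, 60.4% after joining and 0.0% without Gclc, with or without the pseudogene peaks, but to 27.8% without Gclc by the principal coding transcript. The exon share of 16.9% moved to 23.3% at 1e-05 or less and, without Gclc, to 52.8%, to 36.1% by the principal coding transcript and to 45.2% without the pseudogene peaks. The share inside the named gene, 96.6%, moved to 92.5% after joining and 83.3% without Gclc. The other settings for these shares, each pass alone included, stayed within the counting interval. For single genes, the count moved by over 1.5 times for all 5 genes with peaks at 1e-05 or less, for Gclm alone by overlap with the gene body (from 6 to 3), and for all but Gclm after joining. Of the 6 list counts, 5 moved at 1e-05 or less and 1 by overlap. No paired analysis was possible because there is 1 library per group and the columns carry no replicate. With 1 library per group, no depth and no Input values, peak counts cannot be told apart from RNA level, and how multi-mapping reads were placed was not tested.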
